A study of Mus musculus with 124 samples.

Results

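Antibody light chains in B cells sorted from the blood of young CD1 mice were read from 163 gene rows, every row of the count table whose symbol starts with Igkv (160 rows, kappa variable segments, chromosome 6) or Iglv (3 rows, lambda variable segments, chromosome 16). They are 163 of the 53465 genes in the table, and were chosen by name alone. The annotation used here classes 103 of them as functional variable segments and 60 as pseudogenes. Counts in B cells were present for 161 of the 163 segments, 82 segments had counts in all 29 B cell samples, and Igkv13-73-1 and Igkv13-80-1 had none.

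The B cell samples fell into 3 groups. The EtOH group (8 samples, 14 libraries, batch 1) came from the prenatal alcohol model, in which pregnant CD1 mice were injected intraperitoneally with 25% ethanol in phosphate-buffered saline at 4.0 g/kg on embryonic days 16 and 17. The CBM group (13 samples, 13 libraries, batch 2) carries a treatment label that the sources used here do not spell out. The PBS group (8 samples, 15 libraries, batch 1) carries the label of the saline in which the ethanol was given. Blood was taken at postnatal days 35 to 40, and T cells and monocytes were sorted from it as well, which makes 85 samples and 124 libraries in all. Samples were labelled female in 6 of 8 EtOH, 8 of 13 CBM and 4 of 8 PBS cases, and male otherwise. Nothing in the labels says that samples are separate animals, so p-values measure the spread between these samples. All CBM samples are batch 2 and all EtOH and PBS samples are batch 1, so that treatment and batch cannot be told apart in any comparison of CBM with PBS.

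A light chain gene is assembled in each developing B cell by joining 1 variable (V) segment to 1 joining (J) segment, and the product is spliced to a constant region, Igkc for kappa and Iglc1, Iglc2 or Iglc3 for lambda. In the mouse, kappa chains far outnumber lambda chains. The share of light chain V counts on each segment, in a bulk B cell sample, therefore depends on which segments the cells carry. It is weighted by how much light chain RNA each cell holds. Fewer cells carrying a segment and less RNA per such cell cannot be told apart in these data. Reads of these CD1 mice were aligned to GRCm38, and V sequences that differ from it could also lower a segment's counts. The part of such differences was not tested.

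The 3′ end of a V segment supplies the first bases of the third complementarity-determining region, the loop that lies over the join. The lines give the last 90 coding bases of each from GENCODE M21 transcripts (GRCm38), 5′ to 3′, with the codon of the conserved cysteine that precedes that loop in capitals. First come Igkv19-93, the most used segment, and 6 of the 9 members of the Igkv6 family, the most used family.
Igkv19-93: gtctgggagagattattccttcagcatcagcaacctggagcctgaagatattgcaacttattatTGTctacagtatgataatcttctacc
Igkv6-15: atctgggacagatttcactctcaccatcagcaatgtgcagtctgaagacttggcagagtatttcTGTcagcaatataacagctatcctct
Igkv6-23: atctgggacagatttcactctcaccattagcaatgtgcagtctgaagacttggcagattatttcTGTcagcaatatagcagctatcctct
Igkv6-32: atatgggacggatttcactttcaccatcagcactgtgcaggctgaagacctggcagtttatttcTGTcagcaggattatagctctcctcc
Igkv6-20: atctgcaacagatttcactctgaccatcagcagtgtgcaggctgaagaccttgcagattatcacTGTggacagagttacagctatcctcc
Igkv6-17: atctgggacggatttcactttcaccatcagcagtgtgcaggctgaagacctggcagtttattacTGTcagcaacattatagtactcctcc
Igkv6-25: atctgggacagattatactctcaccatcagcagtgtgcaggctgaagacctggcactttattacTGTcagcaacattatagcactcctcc
All 7 have 7 whole codons after the cysteine. Igkv19-93 lies at chr6:68736297-68736780 on the minus strand, Igkv6-15 at chr6:70406469-70406992 on the minus strand, and Igkv6-23 at chr6:70260409-70260955 on the minus strand. Igkv6-32 lies at chr6:70074024-70074603 on the minus strand, and Igkv6-20 at chr6:70335841-70336507 on the minus strand. Igkv6-17 lies at chr6:70371439-70371993 on the plus strand, and Igkv6-25 at chr6:70215400-70215957 on the plus strand. Over the whole coding sequence Igkv6-17 and Igkv6-25 were 95.7% identical and Igkv6-15 and Igkv6-23 were 94.5% identical, so that part of their reads could be assigned to either.
The 3 lambda segments end as follows.
Iglv1: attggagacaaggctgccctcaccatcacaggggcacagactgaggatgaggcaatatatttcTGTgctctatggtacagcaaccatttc
Iglv2: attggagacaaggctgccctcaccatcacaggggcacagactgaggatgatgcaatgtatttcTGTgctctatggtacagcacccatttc
Iglv3: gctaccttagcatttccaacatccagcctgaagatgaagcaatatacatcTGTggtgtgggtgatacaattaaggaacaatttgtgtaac
Iglv1 and Iglv2 have 8 whole codons after the cysteine. Iglv3 has 12, of which the last reads taa, a stop codon. Iglv1 lies at chr16:19085017-19085500 on the minus strand, Iglv2 at chr16:19260401-19260859 on the minus strand, and Iglv3 at chr16:19241207-19241690 on the minus strand.

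Total counts per B cell sample, with repeat libraries summed, were 1.18M to 5.22M in EtOH, 2.04M to 6.89M in CBM and 2.02M to 4.87M in PBS (M, 1e6). Light chain V counts per sample were 2782 to 24927, with a median of 11145. The 13 pairs of repeat libraries differed in V segment counts by a chi-square per segment of 0.751 to 1.42 (median 1.15, where 1 is sampling noise), and were summed. B cell markers summed to 12305 to 22086 CPM in EtOH, 12301 to 18322 CPM in CBM and 12952 to 20904 CPM in PBS, and all 8 were detected in each group, of which Pax5 is also in a list followed below. The library of PBS sample 8 stood apart from the other 28 in segment use, and the levels of sex-linked genes went against the sex label in 4 B cell samples (EtOH sample 3 and PBS samples 6, 7 and 8). Results that rest on them are given with and without them.

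Segment use was broad, with 1 segment ahead of the rest. Igkv19-93, the sole member of its family, took 6.73% of light chain V counts (mean of the 3 group means) and led in 24 of 29 samples. Its share was 6.40, 7.46 and 7.90% (lowest, median, highest) in EtOH, 4.58, 5.87 and 7.39% in CBM, and 5.66, 7.12 and 7.57% in PBS. Every EtOH sample and all PBS samples but sample 2 lay above 6.4%, whereas the CBM samples reached lower and overlapped both groups. Per kilobase of exon, it remained first with 6.82% of the length-scaled total. Iglv1 led in 3 samples (EtOH sample 4, CBM sample 12 and PBS sample 8) and Igkv16-104 in 2 (CBM samples 4 and 7). No segment reached 10% in any sample. The first 17 segments together passed 50% of counts and the first 59 passed 90%.

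Igkv6-15 came next with a mean of 4.17%, at 4.17 ± 0.81% in EtOH, 4.56 ± 0.62% in CBM and 3.78 ± 1.16% in PBS (SD, n = 8, 13 and 8). Iglv3 averaged 4.35 ± 1.12% in EtOH, 3.43 ± 0.48% in CBM and 3.78 ± 0.74% in PBS. Iglv1 was close in the mean and far wider, at 4.03 ± 2.46% in EtOH, 3.50 ± 1.54% in CBM and 3.84 ± 2.47% in PBS. These 3 ranks do not differ beyond the spread between samples. Igkv12-46 followed at 3.25%, Igkv6-23 at 3.14%, Igkv16-104 at 3.12%, Igkv6-32 at 2.88%, and Igkv6-20 and Igkv1-135 at 2.71% each. Igkv1-117 (2.5%), Igkv12-44 (2.30%), Igkv14-111 (2.14%), Igkv8-30 (2.12%) and Igkv1-110 (1.90%) completed the 15 most used segments, each within the SD of its neighbours. Iglv2 ranked 27, at 1.13 ± 0.49% in EtOH, 1.23 ± 0.56% in CBM and 0.99 ± 0.31% in PBS. The order of the first 11 segments was unchanged when shares were scaled by exon length.

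**Figure D1:**
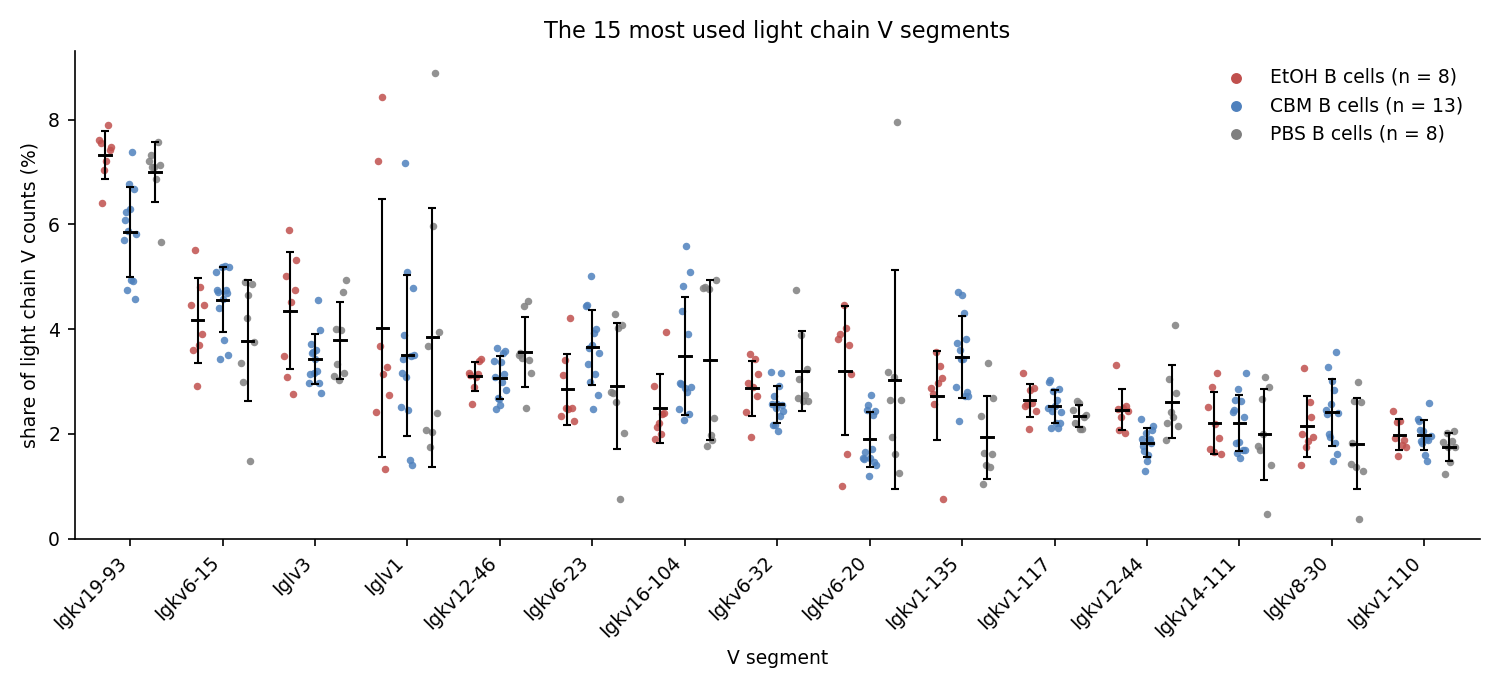
Share of light chain V counts (percent, linear axis from 0) taken by each of the 15 most used segments in 29 B cell samples, EtOH left, CBM middle, PBS right. Points are samples, black bars are group means and error bars are SD. Igkv19-93 sits at 4.58 to 7.90%, and Iglv1 has the widest range, 1.34 to 8.89%.

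Segments of like mean differed in how much they varied between samples. Among the 56 segments at 0.5% or more, the coefficient of variation over 29 samples ranged between 12.1 and 85.9% (median 33.2%), where counting error alone would give a median of 10.5% and at most 16.7%. Igkv1-117 was the steadiest at 12.1%, followed by Igkv19-93 at 14.5%, Igkv1-110 at 15.4% and Igkv12-46 at 15.5%. Igkv3-1 varied most (85.9%, from 0.143 to 2.56%, the highest being PBS sample 8). Igkv6-13 followed at 82.1%, from 0.0565% in PBS sample 8 to 3.61% in CBM sample 6. Iglv1 had a coefficient of 54.3% and Igkv6-20 of 55.0%.

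By family, Igkv6 took the most counts, 16.6 ± 1.6% in EtOH, 18.7 ± 1.5% in CBM and 17.6 ± 2.0% in PBS over 9 segments. Igkv1 (13 segments) held 10.3, 9.79 and 8.56% in EtOH, CBM and PBS, and Igkv8 (12 segments) held 9.19, 10.1 and 8.79%. Igkv4, the family with the most segments (33), held only 8.54, 8.71 and 8.69%. Igkv12 (12 segments) held 8.95, 8.41 and 9.64%, and Igkv3 (13 segments) held 5.16, 6.11 and 5.34%. Group means within each of these families differed by less than 2 SD.

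The 60 pseudogenes together took 1.43 ± 0.28% in EtOH, 0.923 ± 0.329% in CBM and 1.11 ± 0.43% in PBS, and the most used of them, Igkv2-116, averaged 0.18%. Kappa segments lie over 3166 kb on chromosome 6, on both strands, so that some join Igkj1 by deletion of the DNA between and others by inversion. Segments farther from Igkj1 than the midpoint of the locus (73 of 160) held 48.4 ± 1.7% of Igkv counts in EtOH, 45.2 ± 2.1% in CBM and 47.1 ± 2.0% in PBS. The 75 segments on the strand of Igkj1 held 38.0 ± 1.8% in EtOH, 40.0 ± 1.2% in CBM and 36.9 ± 1.1% in PBS, a split examined after the values were seen and not tested.

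**Figure D2:**
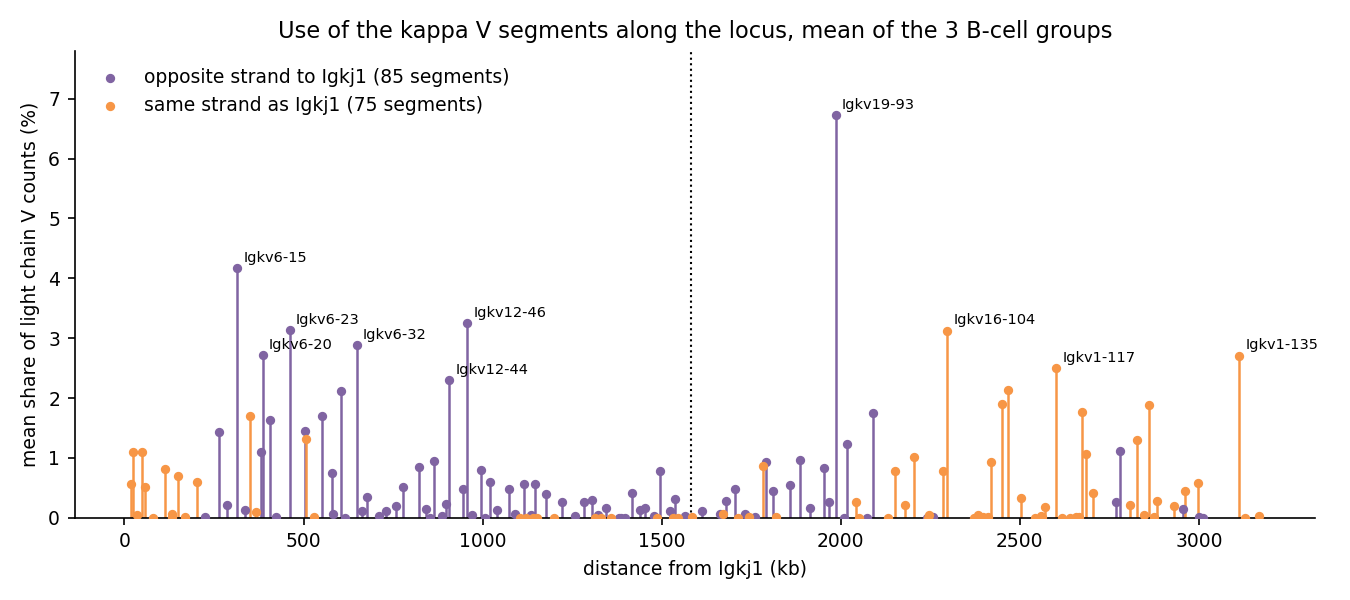
Mean share of light chain V counts (percent) of each of the 160 kappa segments against its distance from Igkj1 (kb), coloured by strand relative to Igkj1 (85 opposite, 75 same), with the midpoint of the locus dotted. Used segments are spread over the whole locus, and Igkv19-93 stands tallest at 6.73%, beyond the midpoint.

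Lambda segments took a minority of V counts in every sample. Iglv made up 4.48, 8.63 and 16.2% of light chain V counts (lowest, median, highest) in EtOH, 5.2, 7.49 and 12.6% in CBM, and 5.54, 7.70 and 14.8% in PBS. The 3 groups overlapped over most of their range. The extremes lay well beyond counting error, at 16.2% (Wilson 95% interval 15.6 to 16.9%) in EtOH sample 4 and 4.48% (4.18 to 4.80%) in EtOH sample 8. Means were 9.5 ± 3.7% in EtOH against 8.61 ± 3.31% in PBS (exact permutation test, two-sided p = 0.622, adjusted over 11 measures 0.964). In CBM the mean was 8.16 ± 2.19% against 8.61 ± 3.31% in PBS (exact permutation p = 0.709, adjusted 0.779). Without PBS sample 8 the difference for CBM was 0.43 percentage points and of the other sign, and did not pass either.

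Within lambda, Iglv3 and Iglv1 took similar parts and Iglv2 less. Iglv3 held 48.4% of Iglv counts in EtOH, 43.9% in CBM and 46.7% in PBS, Iglv1 held 39.7, 41.4 and 41.5%, and Iglv2 held 11.8, 14.7 and 11.8%. Iglv1 stood at 43.5 to 234 CPM in EtOH, 42.6 to 242 CPM in CBM and 43.0 to 201 CPM in PBS, and Iglv3 at 80.3 to 163 CPM in EtOH, 79.5 to 150 CPM in CBM and 63.9 to 135 CPM in PBS. The ranges of Iglv1 were the wider of the 2 in all 3 groups. Of the 50-base windows in the Iglv1 transcript 77.8% were found in no other gene, and Iglv2 was the gene that shared the rest.

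The constant regions gave a higher lambda share than the V segments. The lambda constant genes made up 20.8, 27.6 and 33.8% of light chain constant counts (lowest, median, highest) in EtOH, 23.1, 26.3 and 31.9% in CBM, and 15.8, 21.0 and 31.8% in PBS. The groups overlapped, with 5 of the 8 PBS samples below 22%. Means were 27.1 ± 4.3% in EtOH and 22.1 ± 5.4% in PBS (exact permutation p = 0.0617, adjusted 0.524), and 26.2 ± 2.1% in CBM against the same PBS samples (p = 0.0247, adjusted 0.0679), so neither passed at 0.05. Without the samples that went against their sex label, the EtOH mean over 7 samples was 28 ± 3.7%, against a mean of 19.3 ± 3.2% over 5 PBS samples, and this passed (exact permutation, adjusted p = 0.0208). In that subset CBM averaged 26.2 ± 2.1% (n = 13) against 19.3 ± 3.2% in PBS, and the exact permutation test passed as well (adjusted p = 0.00257). The lambda share of V counts did not pass in that subset for either comparison. PBS samples 7 and 8, which the subset leaves out, had the highest lambda constant shares of their group (31.8 and 27.7%). EtOH sample 3, also left out, had the lowest of its group (20.8%), and PBS sample 6 stood at 20.5%. The permutation tests had no sex term. Per kilobase of exon the lambda share of constant regions was 27.5% in EtOH, 26.3% in CBM and 22.2% in PBS, and that of V segments 9.15, 7.85 and 8.28%. V counts per 100 constant region counts were 28.8 ± 2.8 in EtOH, 28.1 ± 3.5 in CBM and 29.4 ± 4.2 in PBS.

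**Figure D3:**
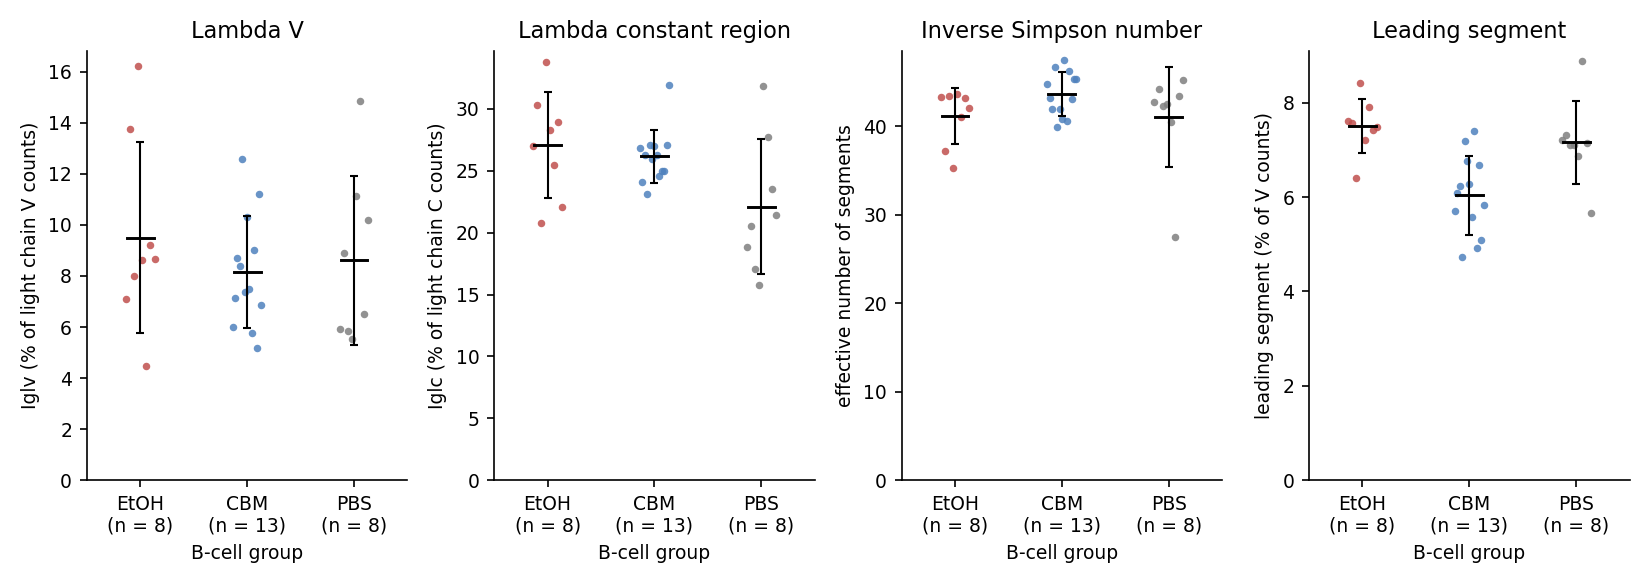
Lambda share of light chain V counts (percent), lambda share of light chain constant region counts (percent), inverse Simpson number of segments and share of the leading segment (percent of V counts). Each panel shows B cell samples, EtOH left, CBM middle, PBS right. Points are samples, black bars means and error bars SD; the lowest inverse Simpson number, 27.6, is PBS sample 8.

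Evenness of segment use did not pass a test in either comparison with all samples. Pielou evenness, which is 1 when all detected segments are equally used, was 0.851 ± 0.015 in EtOH, 0.851 ± 0.008 in CBM and 0.850 ± 0.018 in PBS. The inverse Simpson number, the count of equally used segments that would give the same concentration, was 41.2 ± 3.2 in EtOH, 43.7 ± 2.5 in CBM and 41.1 ± 5.6 in PBS. At a common depth of 2782 V counts, 113 ± 3 segments were detected in EtOH, 110 ± 5 in CBM and 109 ± 7 in PBS. The exact permutation tests gave adjusted p = 0.964, 0.964 and 0.524 for these 3 measures in EtOH against PBS. The same measures gave 0.900, 0.272 and 0.779 in CBM against PBS. The leading segment took 7.50 ± 0.58% in EtOH, 6.04 ± 0.84% in CBM and 7.16 ± 0.88% in PBS. Its exact permutation p was 0.382 (adjusted 0.839) for EtOH and 0.00815 (adjusted 0.0542) for CBM.

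Leaving out the samples that went against their sex label moved 2 further measures past 0.05 in EtOH against PBS. In EtOH the leading segment held 7.66 ± 0.40% of counts over 7 samples, against 6.84 ± 0.66% over 5 PBS samples, with an adjusted p of 0.0208 by exact permutation. Pseudogenes took 1.41 ± 0.29% in EtOH and 0.863 ± 0.109% in PBS (exact permutation, adjusted p = 0.0278). With all samples neither passed, and with PBS sample 8 alone left out the exact permutation tests gave adjusted p = 0.245 for the leading segment and 0.0735 for pseudogenes. The samples left out lay at the ends of their groups that narrowed the differences. For the leading segment, EtOH sample 3 was the lowest of its group (6.40%), and PBS samples 8 and 6 the highest of theirs (8.89 and 7.32%). PBS sample 7 stood at 6.86%. For pseudogenes, PBS samples 8, 6 and 7 were the highest of their group (2.03, 1.35 and 1.14%), and EtOH sample 3 stood at 1.54%.

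Total light chain V RNA was 2580 ± 511 CPM in EtOH and 2515 ± 479 CPM in PBS (exact permutation p = 0.796, adjusted 0.964). In CBM it was 2320, 3205 and 4039 CPM (lowest, median, highest), and in PBS 1817, 2519 and 3305 CPM, ranges that overlap. Means were 3127 ± 518 CPM in CBM and 2515 ± 479 CPM in PBS, with an exact permutation p of 0.0148 (adjusted 0.0542). Of this, Igkv made up 2871 ± 474 CPM in CBM and 2297 ± 434 CPM in PBS (exact permutation p = 0.0128, adjusted 0.0542). Iglv made up 256 ± 86 CPM in CBM and 218 ± 96 CPM in PBS (exact permutation p = 0.361, adjusted 0.497).

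PBS sample 8 had a segment use unlike that of the other 28 samples. Its inverse Simpson number was 27.6 against 40.5 to 45.3 in the other PBS samples, and its Pielou evenness 0.808 against 0.840 to 0.864. The Bray-Curtis distance between its segment shares and those of the others (0 for identical use, 1 for none in common) was 0.258 to 0.452 with a median of 0.398 over 28 pairs. The 378 pairs among the other samples lay at 0.0678 to 0.272 with a median of 0.182, and the 13 pairs of repeat libraries at 0.0581 to 0.141 with a median of 0.082. It was the highest of all samples in 23 segments and the lowest in 38.

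In PBS sample 8, Igkv6-20 took 7.95% (422 counts), against 1.01 to 4.46% elsewhere. Igkv17-127 took 3.82%, Igkv8-21 3.37%, Igkv8-19 2.86%, Igkv1-132 2.64% and Igkv3-1 2.56%, each above all other samples. EtOH samples 1, 4, 5, 6 and 7 shared part of this, a likeness described after the values were seen. Igkv1-132 stood at 19.7 to 30.8 CPM in them and 59.7 CPM in PBS sample 8, against at most 7.49 CPM elsewhere. Igkv2-116 stood at 8.72 to 14.9 CPM in them and 20.5 CPM in PBS sample 8, against at most 3.67 CPM elsewhere. Igkv8-27, nearly absent from PBS sample 8, stood at 29.2 to 45.8 CPM in them. At the other end, 12 segments with a median of at least 0.3% elsewhere lay at or under 0.1% in PBS sample 8. Igkv3-2 had 0 counts of 5309, where the median elsewhere was 1.16%. Igkv8-27 had 1 count, where no other sample lay under 0.983%, and Igkv17-121 had 1 count, where the median elsewhere was 1.10%. Igkv4-55, Igkv4-68 and Igkv4-72 had 0 counts each, and the Igkv4 family took 3.75%. This sample is 1 library and went against its sex label. Its B cell markers summed to 20904 CPM, its T cell markers to 207 CPM and its monocyte markers to 1462 CPM, each the highest in the PBS group. So were its plasma cell markers at 581 CPM (PBS median 453) and its platelet markers at 372 CPM. Its erythroid (1900 CPM, PBS median 5280), neutrophil (97.2, median 120) and B-1 markers (56.2, median 62.2) lay under the PBS median. Natural killer markers stood at 57.5 CPM, under the PBS highest of 100. The part of these markers in its segment use was not tested.

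**Figure D4:**
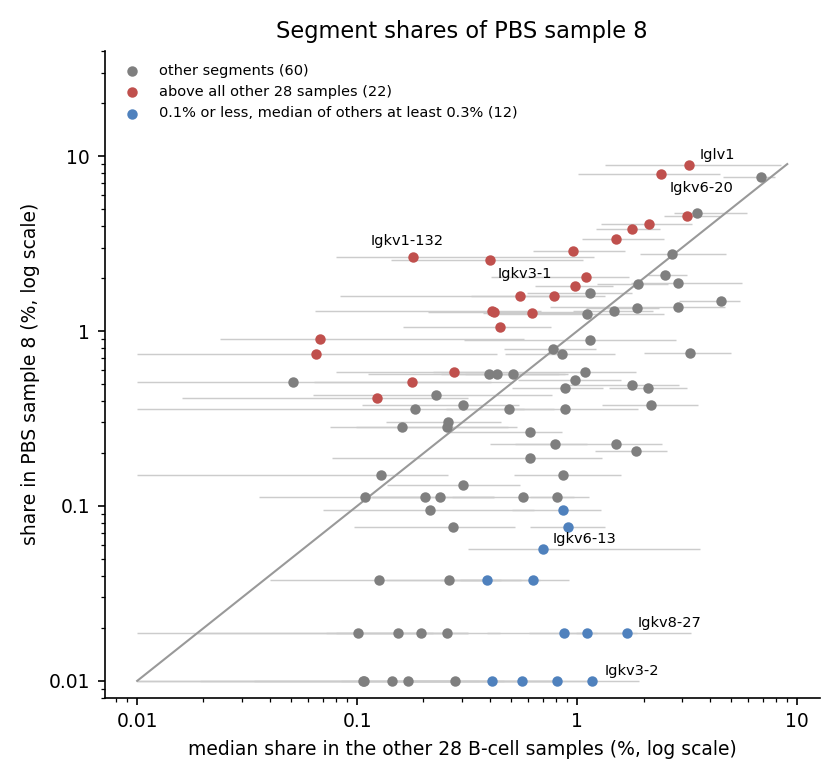
Share of light chain V counts (percent) in PBS sample 8 against the median share in the other 28 B cell samples, both axes logarithmic, for 94 segments. Grey bars span the other 28 samples. The 22 red points lie above all of them and include Igkv6-20 at 7.95%. The 12 blue points are segments at or under 0.1% whose median elsewhere was at least 0.3%. Further segments at or under 0.1% are grey, and shares under 0.01% are drawn at 0.01%.

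Apart from that sample, the median distance within a group was close to that between groups. The median distance within groups was 0.175 in EtOH, 0.170 in CBM and 0.173 in PBS. Between groups it was 0.175 for EtOH and PBS, 0.185 for CBM and PBS, and 0.190 for EtOH and CBM. With PBS sample 8 included, the nearest sample came from the same group for 5 of 8 EtOH, 13 of 13 CBM and 5 of 8 PBS samples. These groups make up 8, 13 and 8 of the 29 samples. Nearest samples were thus of the same group more often than group size alone would give, which was not tested. The CBM group is also its own batch.

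Prenatal ethanol was compared with PBS in B cells across all genes with edgeR's quasi-likelihood test and Benjamini-Hochberg adjustment over 11756 genes, of which 86 were light chain V segments. No segment passed an adjusted p of 0.05, where 0.0% of all genes did. At an unadjusted p under 0.05 there were 1 segment and 904 genes, and DESeq2 called 0 segments and 1 gene. Without the samples that went against their sex label, 0 of 95 segments passed, against 4.62% of all genes. The median log2 difference was -0.02 over the 86 segments and 0.01 over all genes. Of the simulated 2-fold changes 63 of 100 were recovered in this comparison, and of the 4-fold changes 99 of 100. The simulation gave all genes the same fixed spread, so these are not rates for segments.

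The lowest p belonged to Igkv6-14, at 2.92, 3.92 and 5.94 CPM (lowest, median, highest) in EtOH and 2.56, 6.28 and 8.80 CPM in PBS. The ranges overlapped, and the log2 difference was -0.57 (SE 0.26, edgeR adjusted p = 0.641). Igkv12-38 had a log2 difference of -0.55 (SE 0.28) and Igkv8-34 of -1.01 (SE 0.51), with edgeR adjusted p = 0.646 and 0.648. On the positive side, Igkv1-135 stood at 11.9, 77.7 and 107 CPM in EtOH and 19.0, 45.4 and 111 CPM in PBS. EtOH sample 2 was far under the other EtOH samples, and the log2 difference was 0.47 (SE 0.33, edgeR adjusted p = 0.701). Igkv12-89 had 0.27 (SE 0.22) and Igkv4-51 had 0.58 (SE 0.54), with edgeR adjusted p = 0.730 and 0.766. The lambda segments lay near 0, with log2 differences of -0.10 for Iglv1, 0.05 for Iglv2 and 0.05 for Iglv3 (edgeR adjusted p = 0.949, 0.972 and 0.919).

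CBM was compared with PBS in the same way over 14525 genes, 93 of them light chain V segments. Of the 93, 9 passed (9.68%), against 36.2% of all genes. In the direction of higher in CBM, 6 segments passed against 16.9% of all genes, and in the direction of lower, 3 passed against 19.4% of all genes. The median log2 difference was 0.15 over the segments and 0.06 over all genes. These differences are scaled by TMM (trimmed mean of M values) factors, and are therefore not the ratios of the CPM means. With the library size set to the V counts themselves, which compares shares and puts the median of all genes at -0.06, 9 segments also passed, 3 higher and 6 lower, against 29.7% of all genes. The 2 sets shared 6 segments. The 3 that passed only as shares, named after their values were seen, were all lower in CBM by edgeR. Igkv6-20 took 1.19 to 2.75% in CBM and 1.26 to 7.95% in PBS (log2 difference of shares -0.71, adjusted p = 0.029), and 3.17% was the highest PBS value without PBS sample 8. Igkv12-44 had a log2 difference of shares of -0.51 (edgeR adjusted p = 0.0081) and Igkv2-109 of -0.59 (edgeR adjusted p = 0.014).

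Among the segments that rose, Igkv6-17 had 44.8, 80.0 and 98.5 CPM in CBM and 11.1, 31.2 and 60.5 CPM in PBS (lowest, median, highest). Of the CBM samples 9 of 13 lay above the highest PBS sample, and the log2 difference was 0.89 (SE 0.23, edgeR adjusted p = 0.0044). Its share of V counts was 1.77 to 2.89% in CBM and 0.490 to 2.18% in PBS. Igkv6-25, its near copy shown above, had 45.5, 52.4 and 61.9 CPM in CBM and 5.11, 34.2 and 42.7 CPM in PBS. These groups did not overlap, and the log2 difference was 0.55 (SE 0.21, edgeR adjusted p = 0.0405), a call that was lost in 12 of 21 fits that left out 1 sample. Of their 50-base windows, 62.5% for Igkv6-17 and 54.4% for Igkv6-25 were unique, each with the other as main partner, so that the 2 are not independent measurements.

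Igkv1-135 had 57.2, 113 and 190 CPM in CBM and 19.0, 45.4 and 111 CPM in PBS. Of the PBS samples 6 of 8 lay under the lowest CBM sample, and the log2 difference was 0.96 (SE 0.27, edgeR adjusted p = 0.0073). Igkv3-12 had 11.4, 26.2 and 38.3 CPM in CBM and 4.26, 9.48 and 27.1 CPM in PBS, a log2 difference of 0.97 (SE 0.28, edgeR adjusted p = 0.0095). Igkv3-7, with which Igkv3-12 shares windows, had 23.6, 30.2 and 38.0 CPM in CBM and 14.2, 20.1 and 27.2 CPM in PBS, with a log2 difference of 0.40 (SE 0.12, edgeR adjusted p = 0.0094). Groups overlapped for both, and 41.6% of the windows of Igkv3-12 and 65.2% of those of Igkv3-7 were unique. For Igkv1-135 63.5% were unique, with Igkv1-133 as main partner, and for Igkv10-94 53.4%, with Igkv10-96. Igkv8-24, all of whose windows are unique, had 38.1, 48.0 and 85.7 CPM in CBM and 25.4, 31.2 and 48.0 CPM in PBS. Its log2 difference was 0.50 (SE 0.17, edgeR adjusted p = 0.0253), and the call was lost without PBS sample 3, 4 or 8.

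Among the segments that fell, Igkv10-94 had 17, 30.5 and 39.1 CPM in CBM and 30.6, 36.4 and 46.4 CPM in PBS. The log2 difference was -0.48 (SE 0.15, edgeR adjusted p = 0.0145), and the adjusted p was 0.0668 without PBS sample 2. Igkv14-126 had 8.73, 25.5 and 39.7 CPM in CBM and 18.9, 36.4 and 78.2 CPM in PBS. The groups overlapped, the log2 difference was -0.78 (SE 0.24, edgeR adjusted p = 0.0149), and the adjusted p was 0.104 without PBS sample 3. Igkv1-132 had 2.30, 4.72 and 7.49 CPM in CBM and 3.02, 4.49 and 59.7 CPM in PBS, the last being PBS sample 8. The medians were alike, and the log2 difference of -1.20 (SE 0.42, edgeR adjusted p = 0.0292) became -0.15 (adjusted p = 0.680) without that sample. In EtOH, Igkv1-132 stood at 28.2, 30.8, 28, 19.7 and 28.6 CPM in samples 1, 4, 5, 6 and 7 and at 3.54, 5.35 and 4.6 CPM in samples 2, 3 and 8, a split described after the values were seen.

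Without the 3 PBS samples that went against their sex label, 6 of 96 segments passed, against 42.9% of all genes, and 4 of them were among the 9. Igkv6-17 (edgeR adjusted p = 0.0182), Igkv1-135 (0.0172), Igkv10-94 (0.0362) and Igkv14-126 (0.0075) passed in both. Igkv6-17, Igkv1-135, Igkv3-7 and Igkv3-12 passed in all 21 fits that left out 1 sample. As shares of V counts, Igkv3-7 (edgeR adjusted p = 0.101), Igkv8-24 (0.0560) and Igkv6-25 (0.0904) did not pass, and total V CPM had the higher mean in CBM, as given above. Of the lambda segments, none passed, with log2 differences of 0.08 for Iglv1, 0.45 for Iglv2 and -0.03 for Iglv3 (edgeR adjusted p = 0.865, 0.209 and 0.872). Monocyte markers summed to 343 to 2395 CPM in CBM and 236 to 1462 CPM in PBS B cell samples. Neutrophil markers stood at 104, 284 and 2627 CPM (lowest, median, highest) in CBM and 82.8, 120 and 508 CPM in PBS. The part of either marker set in these differences was not tested.

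**Figure D5:**
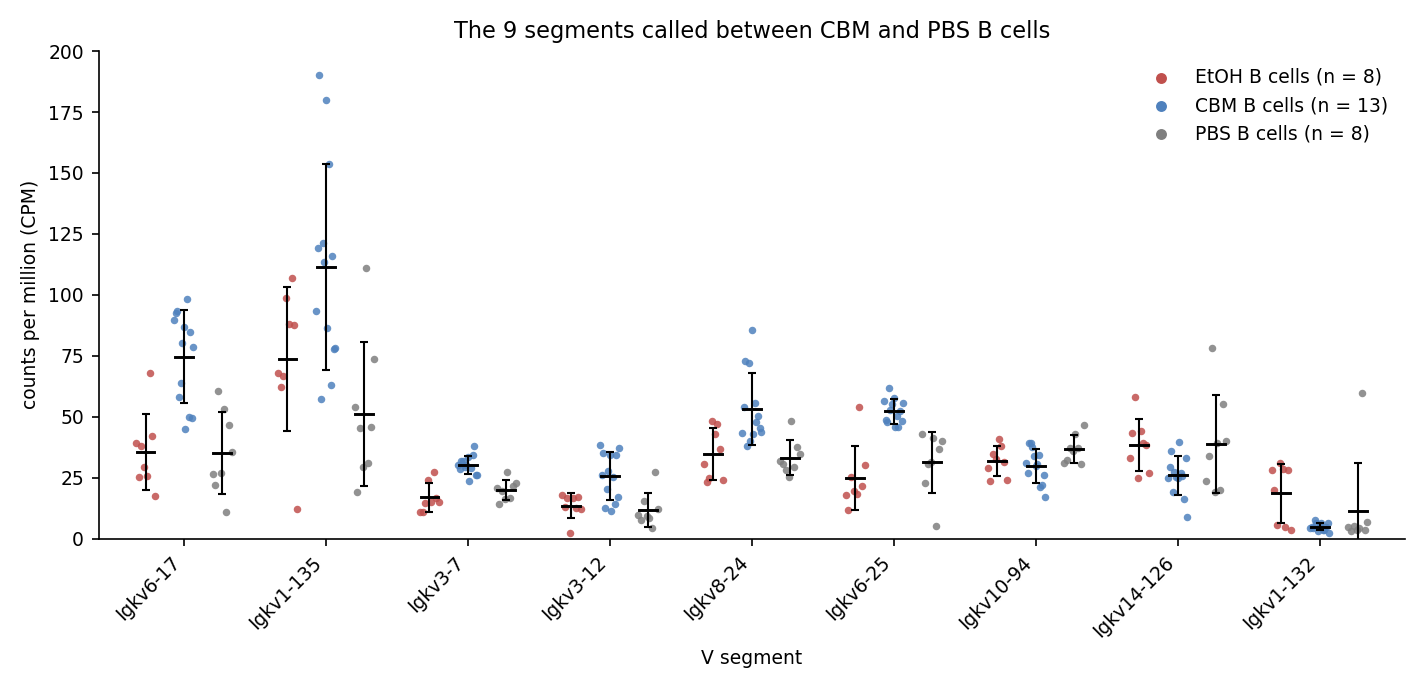
CPM of the 9 segments that passed in CBM against PBS, in EtOH (left), CBM (middle) and PBS (right) B cell samples. Points are samples, black bars means and error bars SD, cut at 0; for Igkv6-25 the 13 CBM samples, at 45.5 to 61.9 CPM, lie above all PBS samples, and for Igkv1-132 PBS sample 8 lies alone at 59.7 CPM.

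Genes that make, join and express light chains were followed beside the segments, from lists chosen by function, and in EtOH against PBS none of them passed. In CBM against PBS, 1 of 5 constant regions passed, where 16.9% of all genes were higher. Iglc2, a lambda constant gene, had 1130 to 2362 CPM in CBM and 661 to 1656 CPM in PBS, with means of 1611 ± 317 and 1047 ± 344 CPM (SD, n = 13 and 8). Its log2 difference was 0.45 (SE 0.16, edgeR adjusted p = 0.0348), and its reads may be shared with its near copy Iglc3. Igkc averaged 8215 ± 897 CPM in CBM and 6656 ± 820 CPM in PBS, with a log2 difference of 0.12 (SE 0.11, edgeR adjusted p = 0.417). Iglc3 (0.40, edgeR adjusted p = 0.089) and Iglc1 (0.42, 0.291) did not pass. None of 7 joining segments passed, nor any of the 3 surrogate light chain genes tested, which pair with the heavy chain before a light chain is made. Their medians were -0.27 and 0.79 against 0.06 over all genes, with Vpreb3 at 0.22 (edgeR adjusted p = 0.440).

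Of 9 recombination genes, 2 fell in CBM and none rose, where 19.4% of all genes were lower. Xrcc5, the Ku80 subunit that binds broken DNA ends, had a log2 difference of -0.52 (edgeR adjusted p = 0.0151) and Dclre1c, the Artemis nuclease that opens hairpin ends, had -0.40 (edgeR adjusted p = 0.0125). Rag1, the catalytic subunit of the recombinase that cuts beside V segments, averaged 4.1 CPM in CBM and 1.6 CPM in PBS, with a log2 difference of 1.13 (edgeR adjusted p = 0.210). None of 6 heavy chain constant regions passed, with Ighd at 3837 CPM in CBM and 2768 CPM in PBS (edgeR adjusted p = 0.0714).

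Of 10 regulators of light chain transcription, 3 rose and 1 fell in CBM. Pax5, which holds B cell identity, averaged 283 CPM in CBM and 132 CPM in PBS (log2 difference 0.93, edgeR adjusted p = 1.2e-04). Irf4, which binds light chain enhancers with Spi1, averaged 84.4 CPM in CBM and 37.8 CPM in PBS (1.02, edgeR adjusted p = 9.1e-05). Pou2f2, the Oct2 factor that binds the octamer of V promoters, stood at 148 to 260 CPM in CBM and 56.2 to 166 CPM in PBS (0.76, edgeR adjusted p = 8.6e-04). Tcf3, whose E2A proteins bind enhancer E boxes, averaged 404 CPM in CBM and 508 CPM in PBS (-0.53, edgeR adjusted p = 0.0134). Of 9 plasma cell genes, 2 rose (Irf4 and Mzb1, 0.66, edgeR adjusted p = 4.2e-04) and 3 fell (Xbp1, -0.72, edgeR adjusted p = 0.0030; Prdm1, -1.41, 0.0082; Slamf7, -0.69, 0.0028). Xbp1 and Prdm1 encode factors of the secretory programme, Slamf7 is a surface receptor, and Mzb1 helps antibody assembly in the endoplasmic reticulum. Irf4 is in both lists. Over all genes 16.9% were higher and 19.4% lower in this comparison.

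Light chain V RNA was also read in the other sorted cells. In T cells its median was 19.0 CPM in EtOH, 20.8 CPM in CBM and 19.2 CPM in PBS, and in monocytes 277, 171 and 92.4 CPM. B cell samples lay at 1596 to 4039 CPM. The highest value in a PBS monocyte sample, 1887 CPM, and in a PBS T cell sample, 499 CPM, stood far above those medians. Cd79a, a B cell marker that signals for the antigen receptor, was high in both, at 155 CPM in that monocyte sample and 624 CPM in that T cell sample. In 1 further PBS T cell sample Cd79a stood at 241 CPM with 132 CPM of light chain V RNA, and the remaining T cell samples had 3.26 to 30.5 CPM of Cd79a. In monocytes the 2 did not always go together. Another PBS monocyte sample had 769 CPM of V RNA with 44.4 CPM of Cd79a, and a CBM monocyte sample had 725 CPM with 19.0 CPM. A further PBS monocyte sample had 118 CPM of V RNA with 127 CPM of Cd79a. The part of B cells in the V RNA of these sorts was not tested. In CBM, the B cell sample that best matched in segment use carried the same CBM number for 3 of 13 monocyte samples and 2 of 12 T cell samples. Most T cell samples, including 1 of those 2, were best matched by the CBM B cell sample with the fewest V counts, 4737. The CBM T cell samples held 57 to 201 V counts. These matches were not tested against chance or for the part of depth in them.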

How the data were processed

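RNA from sorted blood cells was made into cDNA with the SMART-Seq v4 kit and sequenced as paired reads of 50 cycles, per the labels' protocols. The deposited table holds read counts per gene and library, made by the authors with HISAT2 2.1.0 on GRCm38 and HTSeq 0.11.2, per the submitters' processing notes. Use of strand in counting is not given in the sources used here. Reads that match several near-identical segments can be dropped or split by such counting, which bears most on the 19 segments with under 50% unique windows (9.31% of light chain V counts). The 3 rows naming no gene were left out. Samples were grouped by the labels for cell type and treatment, and repeat libraries of a sample were summed.

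CPM (counts per 1000000 gene counts), shares and evenness were computed here from the deposited counts with Python 3.11.15. Sample measures were compared with exact two-sided permutation tests, adjusted by Benjamini-Hochberg over 11 measures in each comparison. Genes were tested in edgeR 4.0.16 (TMM, quasi-likelihood, a filter of 10 counts and a total of 15), with a threshold of 0.05, checked on simulated data. Only the 2 groups compared entered a fit, with labelled sex and treatment as terms. Sex-linked genes went against that label in EtOH sample 3 and PBS samples 6, 7 and 8. In CBM against PBS 82 of 100 simulated 2-fold changes were recovered, at the same fixed spread for all genes, so this is not a rate for segments. Alternatives were DESeq2 1.42.0, its size factors, other filters, no sex term, the first library only, V counts as library size, functional segments only, the leading segment left out, females only, leaving out each sample, and leaving out samples that went against their sex label. Positions, classes and sequences come from GENCODE M21 (GRCm38). Uniqueness is the share of 50-base transcript windows found in no other gene.

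Named are the 15 most used segments, all Iglv, segments that passed or the 3 with the lowest p per direction, segments at 10% or more, and, from each companion list, up to 4 by level plus those that passed. Members and lists were chosen with earlier results of these data known. Both comparisons use the same PBS samples. Counting intervals cover counting error only. Precision follows depth, and a segment at 0.1% had about 3 counts in the shallowest sample.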

Additional observations from a re-analysis of the deposited data

Results flagged for a closer look

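In the groups of 8 samples, 80 sets of values were examined for a sample far from the rest of its group (gap over range above Dixon's 0.526), and 10 were flagged, 6 of them in PBS sample 8. Chance flags about 1 in 20 such sets, and the sets are not independent.

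PBS sample 8 had a Pielou evenness of 0.808 where the other PBS samples lay at 0.840 to 0.864, and an inverse Simpson number of 27.6 where they lay at 40.5 to 45.3. Its pseudogenes took 2.03% of light chain V counts, against 0.745 to 1.35% in the others. Igkv6-20 took 7.95% there against 1.26 to 3.17%, Igkv1-132 took 2.64% against 0.126 to 0.243%, and Igkv6-25 took 0.226% against 1.10 to 1.86%.

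In PBS sample 2, Igkv19-93 took 5.66% against 6.86 to 7.57% in the other PBS samples. In PBS sample 1, Igkv3-12 took 0.960% against 0.188 to 0.551%. In EtOH sample 2, Igkv1-135 took 0.749% against 2.57 to 3.56% in the other EtOH samples. In EtOH sample 5, Igkv12-44 took 3.31% against 2.01 to 2.54%.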

How the results depend on the processing

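No paired analysis was possible because replicate numbers in the labels mark samples within a group and do not link samples across treatments. The count of 9 segments called in CBM against PBS was 13 with DESeq2, 10 with its size factors, 12 with no filter, 9 with the stricter filter, 10 with no sex term, 7 with the first library only, 6 without the samples that went against their sex label, and 6 to 12 with 1 sample left out. Calls higher in CBM were 10 with DESeq2, 2 without those samples and 3 with V counts as library size, against 6. Calls lower were 7 with no filter and 6 with V counts as library size, against 3, and 2 to 6 with 1 sample left out (6 without CBM sample 12). In EtOH against PBS the count of 0 was 1 with no filter and 0 in each fit that left out 1 sample.

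Lambda segments changed sign under several settings, always without passing. Iglv1 in EtOH was 0.068 with no sex term, 0.21 without the label-contradicted samples and -0.33 to 0.057 with 1 sample left out. Iglv2 in EtOH was -0.0081 with no filter, -0.14 without those samples and -0.17 to 0.18 with 1 left out, and Iglv3 in EtOH was -0.015 to 0.10. In CBM, Iglv1 was -0.11 with V counts as library size and -0.13 to 0.26 with 1 left out. Iglv3 in CBM was 0.028 with DESeq2, 0.029 with its size factors, 0.043 with no filter, and -0.088 to 0.077 with 1 left out.

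Without the label-contradicted samples, the EtOH differences in lambda constant share (8.67 points), leading segment (0.818) and pseudogene share (0.546) passed, and those in Igkv CPM (-42.0), Pielou evenness (-0.00542) and inverse Simpson number (-2.41) changed sign. In CBM the lambda constant share (6.84) passed, and lambda V share (1.36), Pielou evenness (-0.00698) and pseudogene share (0.0596) changed sign. With functional segments only, inverse Simpson in EtOH was -0.176. With the leading segment left out, CBM lambda V share was 0.0138 and Pielou evenness -0.00221, and the first library only gave -0.00625 for the last. In females only, EtOH differences were -307 CPM for V, -284 CPM for Igkv and -22.7 CPM for Iglv, and the CBM difference for Iglv was -31.9 CPM. The cause of these changes was not tested.

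With 1 sample left out, CBM differences were 512 to 724 CPM for V and 482 to 665 CPM for Igkv (both passing without CBM sample 4, 6 or 8 or PBS sample 7). The leading segment lay at -1.34 to -0.876 points (passing without CBM sample 2, 4, 6, 8 or 12 or PBS sample 2 or 7), and the lambda constant share at 3.17 to 5.47 points (passing without PBS sample 7, adjusted p = 0.0088). Lambda V share lay at -0.895 to 0.433 points, Pielou evenness at -0.00504 to 0.00284 and segments at common depth at -0.794 to 2.62. EtOH ranges were -35.5 to 205 CPM for V, -69.6 to 166 CPM for Igkv, -5.74 to 45.4 CPM for Iglv, -0.0705 to 1.78 points for lambda V share, -0.00451 to 0.00460 for Pielou evenness and -1.82 to 0.951 for inverse Simpson. Depth limits segments under about 0.1%.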
